A study of Saccharomyces cerevisiae with 2 samples.

Results

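The nuclear genes for proteins of the mitochondrial ribosome were examined for their DNA contacts with mitochondrial DNA (mtDNA), with other nuclear chromosomes and with each other. The genes were found by name: a nuclear MspI restriction fragment was taken when its annotation held a gene called MRPL, MRPS, MRP or RSM followed by a number. This gave 143 of the 13247 nuclear fragments outside the ribosomal DNA repeats (rDNA) that were seen among uniquely mapped sequences, and they named 65 genes. Subunits were assigned by gene name alone, 37 genes to the large subunit, 27 to the small subunit and 1, MRP8, to neither. The MRP8 protein is not known as a component of the ribosome. Of the 143 fragments, 122 overlapped the gene they name and 21 named it only as the nearest gene. The fragments covered 73 large subunit, 68 small subunit and 2 MRP8 entries, and are called mitoribosomal fragments here.

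Contacts were measured by genome conformation capture (GCC), in which chromatin cross-linked with formaldehyde is cut with MspI, ligated while dilute and sequenced without enrichment, so that each count is 1 sequenced join between a pair of fragments. Saccharomyces cerevisiae strain BY4741, a laboratory strain, was grown at 30 °C to an OD600 of 0.6 in synthetic complete medium with glycerol lactate, which is respired, or with galactose, which is both respired and fermented. Each medium is 1 combined library of 2 biological replicates, so replicate spread could not be measured, and every interval below covers counting error only. The uniquely mapped tables held 3221104 counts in glycerol lactate and 2338837 in galactose, of which 83910 and 26312 joined mtDNA to nuclear fragments outside the rDNA (Mito-nDNA counts) and 181286 and 363827 joined different nuclear chromosomes.

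The mitochondrial ribosome makes the handful of membrane proteins of the respiratory chain and the ATP synthase that mtDNA encodes. Nearly all of its proteins are encoded in the nucleus, made in the cytosol and imported, while its 2 ribosomal RNAs (15S_RRNA and 21S_RRNA) and the small subunit protein VAR1 come from mtDNA. The particle is therefore built from both genomes, and the comparison asks how DNA of its nuclear genes meets mtDNA in either medium.

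The mitoribosomal fragments had a median length of 998 bp, against 571 bp for the other 13104 nuclear fragments, and ranged between 11 and 6093 bp. Of them, 23.1% were at least 2 kb long, against 10.9% of the others. They lay on 14 of the 16 chromosomes, with none on chromosomes I and VI, 24 on chromosome IV and 21 on chromosome XI. None had its midpoint within 30 kb of a chromosome end, where 6.60% of the other fragments lay, and 18 (12.6%) were within 30 kb of a centromere, against 7.71% of the others. Longer fragments collected more counts: over the 143 mitoribosomal fragments the rank correlation of length with Mito-nDNA counts was 0.63 in glycerol lactate and 0.45 in galactose, a description over fragments that share 1 library. Each sum below is therefore set beside a length-matched sum, the mean of other nuclear fragments in the same of 20 length classes. The class of the longest fragments is broad, so that single ratios are coarse there.

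Mitoribosomal fragments carried somewhat more Mito-nDNA counts than nuclear fragments of like length in both media. They summed to 1211 counts in glycerol lactate, where fragments of like length gave 1034, a ratio of 1.17 (95% Poisson interval 1.11 to 1.24). In galactose they summed to 409 counts, where fragments of like length gave 326, a ratio of 1.25 (1.13 to 1.38). A single fragment of RSM7 accounted for part of this, and without it the ratios were 1.14 (1.08 to 1.21) in glycerol lactate and 1.12 (1.01 to 1.24) in galactose. The excess was spread over many fragments in glycerol lactate, where 81 of 143 (56.6%) were above their length-matched mean, against 44.6% of other nuclear fragments. In galactose 75 of 143 (52.4%) were above it, against 45.2% of the others. The median fragment stood at 1.09 times its length-matched mean in glycerol lactate and 1.05 times in galactose, where the median of the other fragments was 0.93 and 0.80. These shares and medians of the other fragments were taken over all lengths, and the other fragments were shorter. The excess held among uniquely mapped sequences only. In the tables of all mapped sequences, which also count joins of repeated sequence, the ratios were below 1, at 0.947 (0.90 to 0.996) in glycerol lactate and 0.803 (0.738 to 0.873) in galactose.

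**Figure D1:**
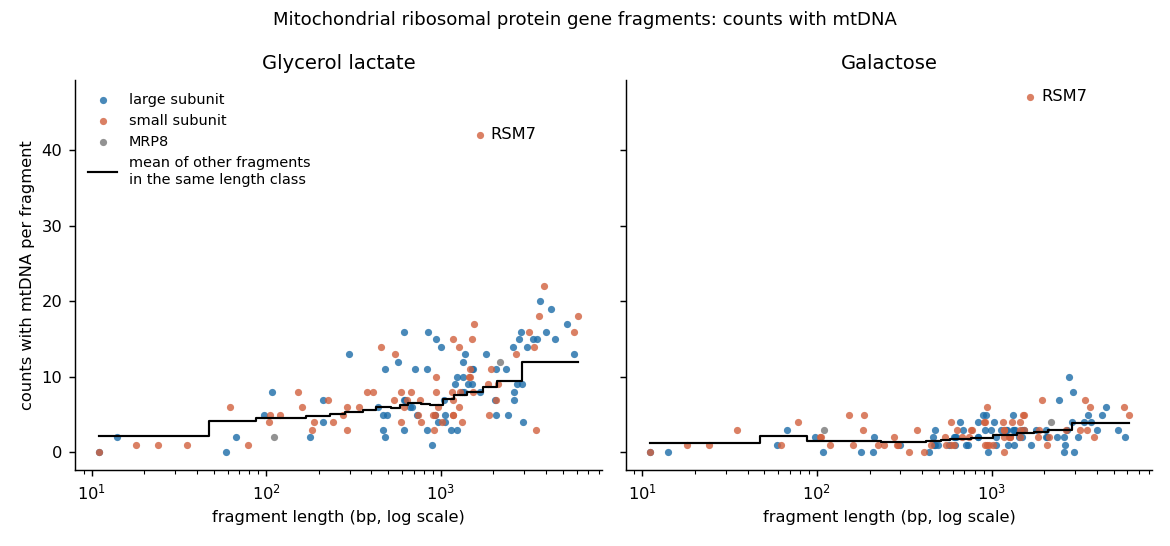
Mito-nDNA counts (vertical axis) of the 143 mitoribosomal fragments against fragment length (horizontal axis, bp, log scale), in glycerol lactate (left) and galactose (right), coloured by ribosomal subunit. The black line is the mean of other nuclear fragments in the same length class. The RSM7 fragment stands alone at 42 counts in glycerol lactate and 47 in galactose, while all others lie at or below 22 and 10 counts.

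Large subunit genes gave 635 Mito-nDNA counts over 73 fragments in glycerol lactate, 1.14 times the length-matched sum (1.05 to 1.23). In galactose they gave 182 counts, a ratio of 1.04 (0.90 to 1.20), an interval that holds 1. The large subunit fragments with the most counts in glycerol lactate were long. MRPL24 (chromosome XIII, 650484 to 654199, which also holds ICY1 and RPL36A) had 20 counts in glycerol lactate and 4 in galactose, MRPL17 (chromosome XIV, 167698 to 171987) had 19 and 5, and MRPL27 (chromosome II, 764831 to 770116) had 17 and 3. The highest ratios came from shorter pieces. A 616 bp fragment that names MRPL10 only as its nearest gene (chromosome XIV, 104170 to 104785) had 16 counts in glycerol lactate, 2.57 times its length-matched mean, and 1 count in galactose. An 841 bp fragment of MRPL17 and NRD1 (chromosome XIV, 172096 to 172936) had 16 counts in glycerol lactate (2.48 times) and 2 in galactose. MRPL35 (chromosome IV, 1110486 to 1111417) was high in both media, with 15 counts in glycerol lactate (2.39 times) and 5 in galactose (2.57 times). A 299 bp fragment that names MRPL13 only as its nearest gene (chromosome XI, 448333 to 448631) had 13 counts in glycerol lactate (2.44 times) and 1 in galactose. MRPL44, with 14 counts in glycerol lactate and 3 in galactose, stood at 2.23 and 1.54 times.

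In galactose the large subunit was led by a fragment of MRP20 (chromosome IV, 1275372 to 1278163, also holding DIT1 and RPB7). MRP20 encodes the protein that sits where the new polypeptide leaves the ribosome. This fragment had 15 counts in glycerol lactate, 1.58 times its length-matched mean, and 10 in galactose, 3.32 times. MRPL4 (chromosome XII, 1014567 to 1017499) had 9 counts in glycerol lactate (0.75 times) and 8 in galactose (2.05 times), and MRPL20 (chromosome XI, 599134 to 601558) had 5 (0.53 times) and 7 (2.33 times). MRPL38 (chromosome XI, 130947 to 132279) had 10 counts in glycerol lactate (1.31 times) and 5 in galactose (2.12 times), and MRPL49 (chromosome X, 243100 to 247614) had 15 (1.25 times) and 6 (1.54 times). At the other end, a 2957 bp fragment of MRPL10 (chromosome XIV, 101002 to 103958) had 4 counts in glycerol lactate, 0.33 times its length-matched mean, and none in galactose. A count of 0 has an exact Poisson upper limit of 3.69 counts. MRPL51 had 5 counts in glycerol lactate (0.58 times) and 2 in galactose (0.73 times).

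The small subunit, with the RSM7 fragment set aside, had ratios whose intervals overlapped those of the large subunit in both media. Its 67 fragments gave 520 Mito-nDNA counts in glycerol lactate, 1.14 times the length-matched sum (1.05 to 1.25), and 173 in galactose, 1.20 times (1.03 to 1.39). RSM22 (chromosome XI, 157244 to 161123, also holding APE2 and RPS27A) had 22 counts in glycerol lactate and 2 in galactose. RSM10 (chromosome IV, 539587 to 543256) had 18 and 6, MRPS8 (chromosome XIII, 572115 to 578207) had 18 and 5, and a MRP21 fragment of 1543 bp (chromosome II, 47668 to 49210) had 17 and 3. These 4 fragments were at 1.84, 1.5, 1.5 and 2.14 times their length-matched means in glycerol lactate. Short pieces near MRP17 (14 counts in glycerol lactate, 1 in galactose) and RSM27 (13 and 1), which overlap DID4 and RPS0A and name the ribosomal gene only as a neighbour, were at 2.33 and 2.19 times in glycerol lactate. In galactose RSM26 (chromosome X, 618944 to 620886, also holding URA8 and VPS25) had 7 counts, 2.57 times, beside 11 counts in glycerol lactate, 1.28 times. Its adjoining 1534 bp fragment had 8 counts in glycerol lactate (1.01 times) and 5 in galactose, and MRPS9 (chromosome II, 534961 to 536466) had 15 (1.89 times) and 5, both at 2.00 times in galactose. The 5769 bp fragment of MRP21 had 16 counts in glycerol lactate and 6 in galactose, and the RSM27 fragment of 938 bp had 8 and 6. A MRPS17 fragment shared with HSC82 had 14 counts in glycerol lactate and 7 in galactose, at 1.17 and 1.79 times. The lowest of the long fragments was MRPS28 (chromosome IV, 1146520 to 1150039), with 3 counts in each medium, 0.25 times its length-matched mean in glycerol lactate and 0.77 times in galactose. RSM25 had 5 counts in glycerol lactate (0.58 times) and 3 in galactose (1.10 times).

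The order of the fragments was compared between the libraries. Without the RSM7 fragment, the ratios to the length-matched mean had a rank correlation of 0.02 between glycerol lactate and galactose over 142 fragments, against 0.12 over the other nuclear fragments, where the points share fragment and reference but not library. In galactose 133 of the 143 fragments had at most 5 counts, so the order among them is not resolved at this depth. There were 45 fragments (31.5%) above their length-matched mean in both media, against 22.1% of other nuclear fragments of all lengths. The mitoribosomal share was also higher in each library alone, so this gap does not measure agreement between the media. The fragments that merely neighbour a ribosomal gene (21 fragments) gave 134 counts in glycerol lactate, 1.26 times the length-matched sum (1.06 to 1.5), and 28 in galactose, 0.86 times (0.57 to 1.25).

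**Figure D2:**
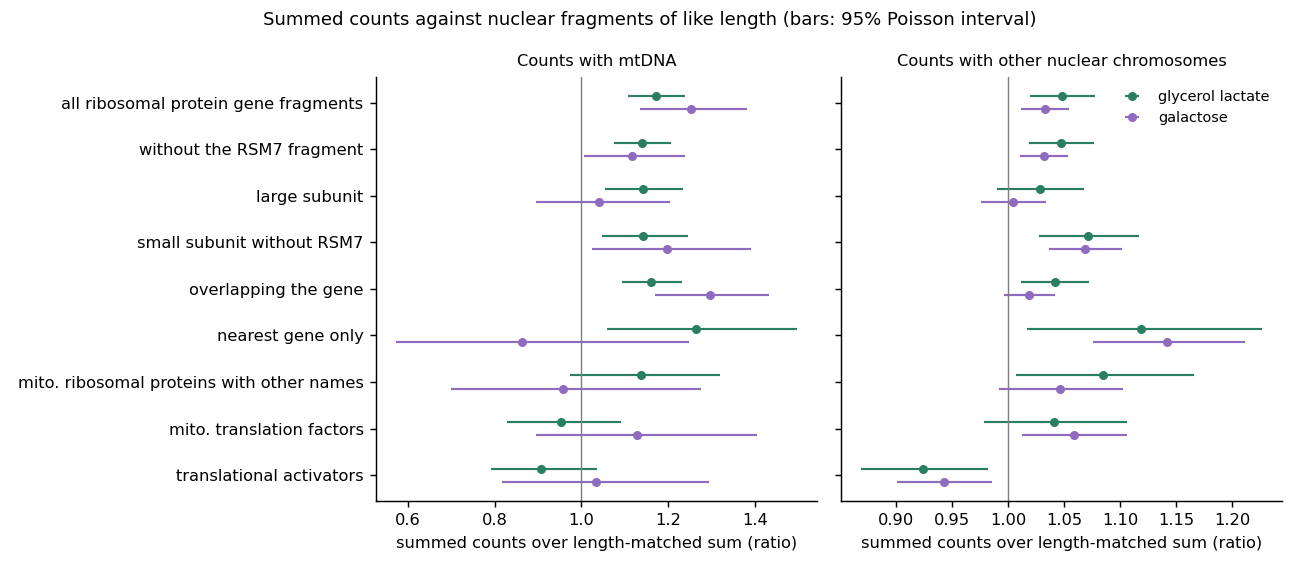
Summed counts divided by the length-matched sum (horizontal axis, ratio) for mitoribosomal fragments, their subsets and 3 other gene lists of mitochondrial translation (rows), with mtDNA (left) and with other nuclear chromosomes (right), in glycerol lactate and galactose. Points are ratios and bars 95% Poisson intervals. All mitoribosomal fragments stand at 1.17 and 1.25 with mtDNA, and at 1.05 and 1.03 between chromosomes.

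The exception was RSM7, which encodes the small subunit protein of the uS7 family, a binder of the small ribosomal RNA. Its 1668 bp fragment, which lies on chromosome X between neighbours that end at 638756 and begin at 640425, had 42 Mito-nDNA counts in glycerol lactate and 47 in galactose, against length-matched means of 7.94 and 2.50. It was the third highest of all nuclear fragments in glycerol lactate and the highest in galactose, and it held 3.47% of all mitoribosomal Mito-nDNA counts in glycerol lactate and 11.5% in galactose. The coding sequence runs on the minus strand between 638226 and 638969 in the file annotation, so the fragment holds the start of the gene and the sequence upstream of it, together with most of an unnamed open reading frame on the plus strand (639936 to 640445). The other pieces of RSM7 did not share the signal. The adjoining 224 bp fragment had 7 counts in glycerol lactate and 1 in galactose, and the 968 bp fragment beyond it, shared with NNF1, had 6 and 1, where their length-matched means were 4.86 and 1.51, and 6.27 and 1.94. On the other side, the STE24 fragment had 7 counts in glycerol lactate and 4 in galactose. Between-chromosome counts of the RSM7 fragment were 43 in glycerol lactate and 74 in galactose, 1.11 and 1.09 times its length-matched means.

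**Figure D3:**
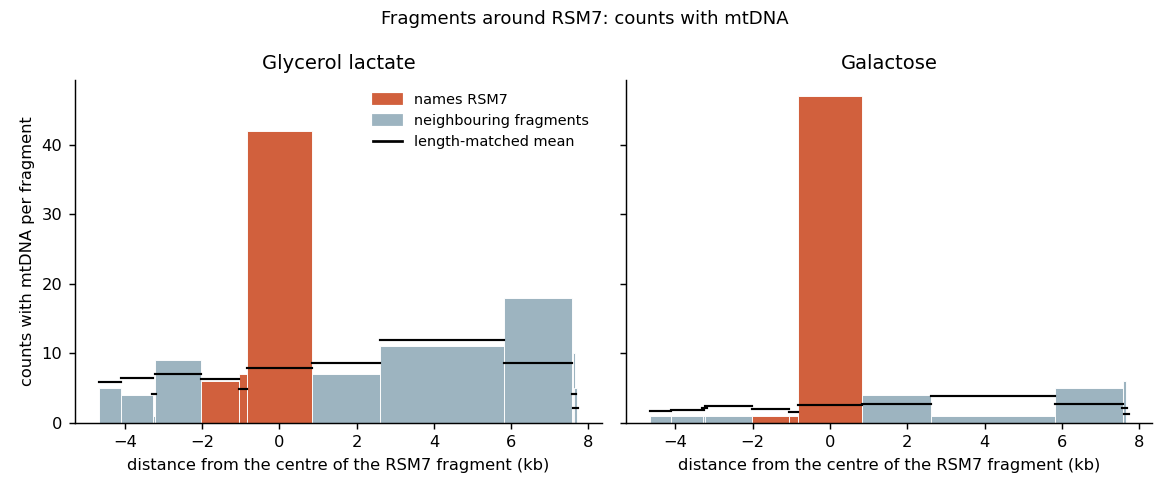
Mito-nDNA counts (vertical axis) of consecutive MspI fragments around RSM7 by distance from the centre of the 1668 bp RSM7 fragment (horizontal axis, kb), in glycerol lactate (left) and galactose (right). Bars are as wide as the fragments, orange bars name RSM7, and black lines are length-matched means. Counts of 42 and 47 are confined to 1 fragment among those drawn, and the next highest in the window are 18 and 6.

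The largest RSM7 pair held most of its counts in galactose and a smaller share in glycerol lactate. With the mtDNA fragment 17290 to 24261, which lies in COX1 (subunit I of cytochrome c oxidase) and its intron open reading frames, RSM7 had 17 counts in glycerol lactate and 32 in galactose. The remaining counts were 25 (exact Poisson interval 16.2 to 36.9) in glycerol lactate over 14 further mtDNA fragments, and 15 (8.40 to 24.7) in galactose over 9, which is still 3.15 and 5.99 times the length-matched mean for all partners. The mtDNA fragment 67982 to 68677, which holds a transfer RNA gene, had 4 counts with RSM7 in each medium, and 84270 to 84492, with no annotated gene, had 6 in glycerol lactate and 2 in galactose. No count joined this 1668 bp fragment to VAR1 or 21S_RRNA in either medium, and 1 count in glycerol lactate joined it to 15S_RRNA.

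Each fragment's share of the Mito-nDNA counts was compared between the libraries by a two-sided Fisher's exact test with Benjamini-Hochberg adjustment over the 4568 nuclear fragments with at least 10 such counts. This compares 2 libraries and not the media, and it treats counts as independent. A fragment that was not called is not thereby shown to hold equal shares, since few counts stand behind most of them. Of 73 mitoribosomal fragments tested, 1 was called at an adjusted p under 0.05, against 0.0438% of all fragments tested. This was RSM7, whose share was lower in glycerol lactate (0.0501% of the library's Mito-nDNA counts) than in galactose (0.179%; Fisher's exact test, adjusted p = 2.08e-05). The call rested on the COX1 pair, since without that pair (25 counts in glycerol lactate, 15 in galactose) the adjusted p of the exact test was 0.884, and with distinct partner fragments in place of counts (15 and 10) it was 1. At an unadjusted p under 0.05, 1 of the 73 mitoribosomal fragments had a higher share in glycerol lactate and 3 in galactose (5.48% in all, against 5.19% of all fragments tested). They were a MRPL25 fragment (chromosome VII, 637438 to 640039), with 14 counts in glycerol lactate and none in galactose, RSM7, MRPL20 and MRPL4.

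The summed Mito-nDNA counts of mitoribosomal fragments in glycerol lactate were 2.96 times those in galactose (95% interval 2.65 to 3.31). Over all nuclear fragments the ratio was 3.19 (3.15 to 3.23). Without the RSM7 fragment the mitoribosomal ratio was 3.23 (2.87 to 3.63), which holds the value over all fragments. The large subunit stood at 3.49 (2.96 to 4.11) and the small subunit without RSM7 at 3.01 (2.53 to 3.57), intervals that overlap. Between-chromosome counts moved the other way, and per between-chromosome count the mitoribosomal ratio was 5.20 (4.65 to 5.82), against 6.40 over all fragments. Both values include the RSM7 fragment and were not matched for length, and mitoribosomal fragments were longer. Among other nuclear fragments the between-chromosome ratio of glycerol lactate to galactose was 0.38 under 500 bp and 0.85 at 3000 bp or longer. Counts are not corrected for the number of mtDNA copies per cell, whose part in these ratios was not tested. The study's own estimate of mtDNA copies per nuclear genome was lower in glycerol lactate than in galactose.

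Pairs of at least 3 counts with mtDNA were then taken one by one. In glycerol lactate 19 of the 143 mitoribosomal fragments (13.3%) had at least 1 pair with mtDNA at that level, against 8.58% of all nuclear fragments and 15.1 fragments expected from the length classes. In galactose only the RSM7 fragment did (0.699%), against 0.566% of all nuclear fragments and 1.12 fragments expected from the length classes. With at least 2 counts the numbers were 85 in glycerol lactate (59.4%), against 45.1% of all nuclear fragments and 71.3 expected from the length classes. In galactose they were 19 (13.3%), against 8.98% and 15.7 expected. With at least 4 counts they were 5 in glycerol lactate (3.50%), against 1.28% and 2.46 expected, and 1 in galactose (0.699%), against 0.0755% and 0.209 expected. The 19 fragments formed 24 pairs in glycerol lactate, of which 8 were with COX1 and 2 each with COB (cytochrome b) and with the large ribosomal RNA. COX1 fragments cover 17.1% of mtDNA length. The COX1 share among such pairs of other nuclear fragments was not taken, so no preference can be read from the 8. After the COX1 pair of RSM7, the highest were RSM7 with 84270 to 84492 (6 counts), RSM7 with 67982 to 68677, MRPL27 and MRPS8 with the COX1 fragment 17290 to 24261, MRPS17 with the COX1 fragment 12812 to 17289, and MRPL22 with the 21S_RRNA fragment 60563 to 62559 (4 counts each). MRPL36 with the COX1 fragment 12812 to 17289 was among those at 3 counts. Except for the 3 RSM7 pairs and 1 pair of MRPL24, none of the 24 pairs was seen in galactose. Without the RSM7 fragment this is 1 of 21 pairs (4.76%), against 68 of 1184 such pairs (5.74%) of other nuclear fragments, and the galactose library held fewer Mito-nDNA counts.

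Partners were then sorted by the gene annotated on the mtDNA fragment. Contacts with the mitochondrially encoded parts of the same ribosome took shares whose intervals held those of other nuclear fragments. VAR1 and the 2 ribosomal RNAs took 7.35% of mitoribosomal Mito-nDNA counts in glycerol lactate (95% Wilson interval 6.01 to 8.96; 89 of 1211) and 9.54% in galactose (7.05 to 12.8; 39 of 409), against 7.32% and 8.56% for the other nuclear fragments. VAR1 alone took 2.31% in glycerol lactate and 2.44% in galactose, against 2.09% and 2.03%. The highest VAR1 count was 2, reached in glycerol lactate by fragments of MRPL25, RSM7 (the 968 bp fragment), RSM22, MRPL15 and MRPL3, and in galactose by MRPL17. 15S_RRNA was highest with MRP8 in glycerol lactate (2 counts), while in galactose no fragment exceeded 1. 21S_RRNA was highest with MRPL22 in glycerol lactate and with MRPL20 in galactose, at 4 counts each.

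The COX1 share was above that of other nuclear fragments in galactose, where the RSM7 fragment set much of the gap. In glycerol lactate COX1 fragments took 10.8% of mitoribosomal Mito-nDNA counts (9.19 to 12.7), against 9.14% for other nuclear fragments. In galactose they took 22.0% (18.3 to 26.3), against 12.9%. Without the RSM7 fragment the shares were 9.58% (8.02 to 11.4) in glycerol lactate and 16.0% (12.6 to 20.2) in galactose, with intervals that overlap those of the other fragments. COB took 7.27% in glycerol lactate and 8.07% in galactose, against 6.48% and 8.11%. In glycerol lactate COX2, COX3, ATP6, ATP8 and OLI1, the remaining genes for respiratory chain and ATP synthase subunits, together took 7.87% without RSM7 (6.46 to 9.56), against 5.74% (5.58 to 5.90). In galactose the same genes took 6.91% (4.72 to 10.0), against 6.93%. mtDNA without a gene took, with the RSM7 fragment set aside, 52.1% (49.2 to 54.9) in glycerol lactate, against 55.8%, and 40.3% (35.4 to 45.5) in galactose, against 48.6%. These shares were not matched for the length of the nuclear fragment.

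**Figure D4:**
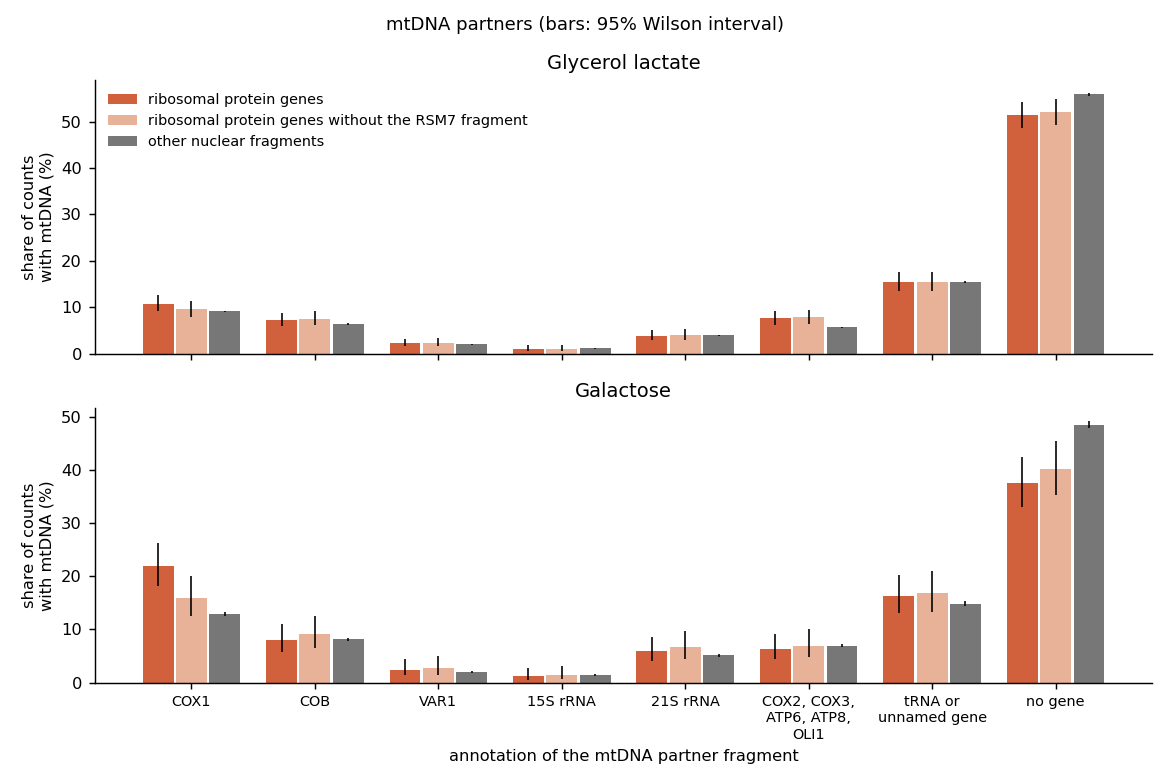
Share of Mito-nDNA counts (vertical axis, %) by the annotation of the mtDNA partner (horizontal axis), in glycerol lactate (top) and galactose (bottom), for mitoribosomal fragments, the same without the RSM7 fragment, and other nuclear fragments. Bars have 95% Wilson intervals. The COX1 share of mitoribosomal fragments in galactose is 22.0% with RSM7 and 16.0% without it, against 12.9% for other fragments.

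With other nuclear chromosomes the mitoribosomal fragments differed little from fragments of like length. They had 5082 between-chromosome counts in glycerol lactate and 8924 in galactose, 1.05 (1.02 to 1.08) and 1.03 (1.01 to 1.05) times the length-matched sums. In the tables of all mapped sequences, where fragments with repeats collect many more counts, the ratios were 0.205 and 0.245. Small subunit genes without RSM7 were at 1.07 (1.03 to 1.12) in glycerol lactate and 1.07 (1.04 to 1.10) in galactose, and large subunit genes at 1.03 (0.99 to 1.07) and 1.00 (0.98 to 1.03). The most connected fragments in glycerol lactate were MRPL27 and MRPS8 with 104 counts each, MRPL31 with 91, MRPL25 with 85, and MRP4 and MRP21 with 79 each. In galactose they were MRP7 with 109, MRPS16 and MRP21 with 106 each, MRPS8 with 105 and MRP4 with 104.

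The share of between-chromosome counts was tested between the libraries in the same way. Of 141 mitoribosomal fragments tested, 15 were called with a higher share in glycerol lactate (10.6%), against 4.63% of all 13100 fragments tested, and none with a higher share in galactose, against 2.70%. In both directions together the 15 stand beside 7.33% of all fragments tested. In the tables of all mapped sequences the direction turned, and it did so over all fragments. There 78 of 141 mitoribosomal fragments were called, 1 of them higher in glycerol lactate and 77 in galactose, where 68.2% of all fragments were called. Of those 9234 calls over all fragments, 580 were higher in glycerol lactate. At an unadjusted p under 0.05, 27 were higher in glycerol lactate (19.1%, against 10.1% of all fragments tested) and 9 in galactose (6.38%, against 11.7%). The strongest by Fisher's exact test were MRPL27 (104 counts in glycerol lactate, 73 in galactose, a share 2.86 times higher in glycerol lactate, adjusted p = 2.28e-09), MRPL15 (69 and 55, 2.52 times, adjusted p = 4.71e-05) and MRPS8 (104 and 105, 1.99 times, adjusted p = 9.72e-05). The other 12 were MRPL36, MRPS9, MRPS28, MRPL25, MRPL9, MRPL49, MRPL8, MRPL31, MRPL4, MRPS17, MRPL24 and MRPL22, at 1.66 to 2.26 times.

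All 15 were long, between 1504 and 6093 bp, and of all nuclear fragments of at least 1500 bp 521 of 2440 (21.4%) were called with a higher share in glycerol lactate, while of the 44 mitoribosomal ones 15 were (34.1%). Among mitoribosomal fragments under 500 bp the between-chromosome counts in glycerol lactate were 0.37 times those in galactose, and at 3000 bp or longer 0.88 times. For other nuclear fragments of these lengths the values were 0.38 and 0.85 times. Fragments of like length to the 141 gave 13.1 calls with a higher share in glycerol lactate and 2.54 with a higher share in galactose. When each fragment was compared with others of its own length class only, none of the 141 was called, against 0.870% of all fragments. Mito-nDNA counts had no such order: from shortest to longest the mitoribosomal values in glycerol lactate were 3.10, 3.12, 2.31 and 3.8 times those in galactose over 4 length groups, and the group at 2.31 holds RSM7.

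**Figure D5:**
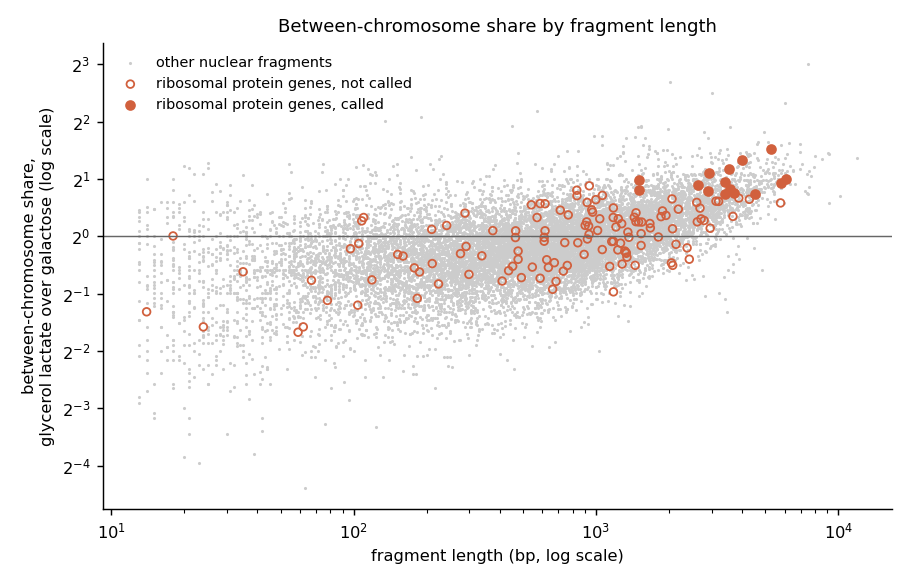
Ratio of each fragment's share of between-chromosome counts, glycerol lactate over galactose (vertical axis, log scale), against fragment length (horizontal axis, bp, log scale). Grey points are other nuclear fragments, open circles mitoribosomal fragments not called and filled circles the 15 called. All 15 lie at the long end, at or above 1504 bp, where most other fragments of the longest lengths also lie above a ratio of 1.

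Mitoribosomal fragments met each other about as often as their between-chromosome totals predict, with intervals that hold 1. Pairs of them on different chromosomes gave 27 counts in glycerol lactate, where the product of the totals predicts 34.3, a ratio of 0.79 (exact Poisson interval 0.52 to 1.14). In galactose they gave 52 counts, where 52.5 are predicted, a ratio of 0.99 (0.74 to 1.30). In the tables of all mapped sequences the ratio was 1.11 (0.73 to 1.62) in glycerol lactate and 1.61 (1.23 to 2.07) in galactose, with 27 and 60 counts. Within the large subunit there were 9 counts in glycerol lactate (9.83 predicted) and 12 in galactose (13.6 predicted), within the small subunit 5 (6.81) and 8 (11.6), and between the subunits 13 (16.8) and 32 (26.2). The highest pair in glycerol lactate was RSM27 (chromosome VII, 920054 to 920428) with the 224 bp fragment of RSM7, at 2 counts, and in galactose MRPL24 (chromosome XIII) with MRPL17 (chromosome XIV, 167698 to 171987), at 3 counts. All other pairs had 1 count, and 1 pair, MRPL11 with MRPS8, was seen in both media. Pairs on the same chromosome that do not adjoin gave 692 counts in glycerol lactate and 402 in galactose, mostly from pieces of 1 gene separated by a very short fragment, such as MRPS5 (141 and 69 counts for pieces 11 bp apart). Those at least 20 kb apart gave 6 counts in glycerol lactate and 30 in galactose.

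Other genes of mitochondrial translation are given for comparison. The 10 ribosomal proteins with other names (among them NAM9, PET123 and MHR1; 24 fragments) had 174 Mito-nDNA counts in glycerol lactate, 1.14 times the length-matched sum (0.97 to 1.32), and 46 in galactose, 0.96 times (0.70 to 1.28). The 9 translation factors, such as the elongation factor gene TUF1 (34 fragments), had 212 counts, 0.95 times (0.83 to 1.09), and 80, 1.13 times (0.90 to 1.41). The 12 translational activators, such as PET309 and CBS1, which help single mtDNA messages to be translated (33 fragments), had 219 counts, 0.91 times (0.79 to 1.04), and 77, 1.03 times (0.82 to 1.29). In the 3 lists 9, 11 and 14 fragments had enough counts to be tested for their Mito-nDNA share. None was called, against 0.0438% of all fragments tested. The intervals of the 3 lists overlap those of the mitoribosomal fragments without RSM7 in galactose, and in glycerol lactate for the first 2 lists. In glycerol lactate the activators' interval ends at 1.04 and the mitoribosomal one without RSM7 begins at 1.08. Between chromosomes the activators were below 1, at 0.92 (0.87 to 0.98) in glycerol lactate and 0.94 (0.90 to 0.99) in galactose. The first 2 lists stood above 1 there in both media.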

How the data were processed

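The deposited tables hold raw counts of ligation products per pair of MspI fragments, 1 table of uniquely mapped and 1 of all mapped sequences for each medium. Per the study's methods, the authors placed paired-end reads with SOAP without mismatches, assembled the network with Topography, and combined 2 biological replicates. Each pair is listed in both orders and was counted once. Coordinates are those of the files' reference sequences, written from 1. Gene names come from the files' annotation, and all 65 matched the RefSeq table of names. No correction for depth or for mtDNA copy number was applied, and replicates could not be separated.

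Fragments of the rDNA repeats on chromosome XII were left out. The background was the mean of nonmember fragments in 20 length classes. Fisher's exact tests used counts of at least 10 over both libraries, and were tested on simulated data. There the changes were put into the glycerol lactate counts only. The Mito-nDNA test recovered the largest rises in glycerol lactate, a minority of the smaller rises and none of the falls. Rises in galactose were not simulated. A fragment not called for its Mito-nDNA share may therefore still differ between the libraries in either direction. Contacts among members were set beside the product of between-chromosome totals. Sums have exact Poisson, shares Wilson 95% intervals, covering counting error only, since reads carry no molecular identifiers. The members and gene lists were chosen with earlier results of these data known. In each library the text names the 8 fragments with the highest Mito-nDNA counts, the 8 highest ratios (length-matched mean of at least 2) and 5 lowest (at least 8, reached in glycerol lactate only), the 8 highest pairs in glycerol lactate and all pairs of 3 counts in galactose, fragments called, the 5 highest by between-chromosome counts, the highest member pairs, and the highest for VAR1 and each rRNA. Those at an unadjusted p were named after their values were seen. Python 3.11.15, pandas 2.3.3, scipy 1.17.1 and statsmodels 0.14.6 were used. Alternatives are given in the closing section.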

Additional observations from a re-analysis of the deposited data

Results flagged for a closer look

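The share of Mito-nDNA counts of the RSM7 fragment differed between the libraries by the test of the difference itself (adjusted p = 2.08e-05, Fisher's exact test with Benjamini-Hochberg adjustment), with 42 counts in glycerol lactate and 47 in galactose, and not without its COX1 pair.

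Between-chromosome shares differed by the same exact test, all higher in glycerol lactate, for MRPL27 (adjusted p = 2.28e-09), MRPL15 (4.71e-05), MRPS8 (9.72e-05), MRPL4 (0.000592), MRPL31 (0.00108), MRPS17 (0.00232), MRPS28 (0.00255), MRPL25 (0.00541), MRPL8 (0.00855), MRPL36 (0.018), MRPL24 (0.0204), MRPS9 (0.0288), MRPL9 (0.0288), MRPL49 (0.0306) and MRPL22 (0.0322). None of these 15 was called against fragments of the same length class, a comparison chosen after seeing the data.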

How the results depend on the processing

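No paired analysis was possible because each medium is 1 library that combines its replicates, and replicates could not be left out. Of 132 values of 19 results, 112 stayed within the counting interval or within 1.5 times the count. The tables of all mapped sequences moved 8 values: the ratio of Mito-nDNA counts to the length-matched sum stood at 0.947 (glycerol lactate) and 0.803 (galactose), the between-chromosome ratios were 0.205 and 0.245, the ratio of contacts among mitoribosomal fragments in galactose was 1.61, 78 were called for their between-chromosome share, 3 had a pair of at least 3 counts with mtDNA in galactose, and the COX1 share in galactose was 17.5%. The cause was not tested. Without the RSM7 fragment the Mito-nDNA ratio in galactose was 1.12, the COX1 share 16.0%, and 0 fragments were called for their Mito-nDNA share or had a pair of at least 3 counts in galactose. That Mito-nDNA call was also lost (0) with distinct partners, and without the RSM7 pair with COX1. With each fragment's own between-chromosome counts as the comparison, 62 of 73 were called, against 74.1% of all fragments tested, without matching for length. With the same length class as the comparison 0 were called for their between-chromosome share. A pair of at least 2 counts was held by 85 fragments in glycerol lactate and 19 in galactose, and one of at least 4 by 5 in glycerol lactate. Per between-chromosome count, Mito-nDNA counts in glycerol lactate were 5.20 times those in galactose. Leaving out the RSM7 and COX1 pair, the same length class and a background away from chromosome ends were chosen after seeing the data, and the last gave Mito-nDNA ratios of 1.15 in glycerol lactate and 1.23 in galactose. Depth limits the galactose values, where the median fragment had 2 Mito-nDNA counts, and no value has a replicate check.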

Other observations

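The mitoribosomal fragments had 115 counts with the 2-micron plasmid in glycerol lactate (0.95 times the length-matched sum) and 225 in galactose (0.94 times). With uniquely mapped rDNA they had 95 and 70 counts (0.84 and 0.73 times). Exact Poisson intervals of these counts held the length-matched sum except for rDNA in galactose (54.6 to 88.4, against 95.5). In the tables of all mapped sequences the ratios were 1.15 in glycerol lactate and 1.02 in galactose for the plasmid, and 0.130 and 0.138 for rDNA. None was joined to pUC19, which the study added after ligation, in either library, and 1 count in galactose joined one to the Lambda ligation control.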
